A study of Homo sapiens with 2 samples.

Results

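Aminoacyl-tRNA synthetases are the enzymes that attach each amino acid to its tRNA, and the human genome encodes separate sets for the cytosol and for mitochondria. The genes were taken from the deposited gene table as protein-coding entries with a synthetase symbol (the amino acid letter followed by ARS and at most 1 digit, EPRS1, FARSA or FARSB) whose description names a tRNA synthetase or ligase. The rule found 38 genes of the 38637 listed. Of these, 17 carry the suffix 2 and encode mitochondrial enzymes, and the other 21 are treated here as cytosolic.

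The data were RNA-seq of poly(A)-selected RNA from the human lung cancer line H1299, of the non-small cell type, in 2 libraries. The PHF12 knockdown library comes from cells whose treatment label is PHF12 KD and whose title carries the prefix si. The control library is labelled as having no treatment, and its title ends in nc. Both are labelled wild type in genotype, and the sources used here do not give the oligonucleotides, their timing or how the control cells were handled. Everything rests on 1 cell line with 1 library per group, so no difference could be set against replicate spread. The values describe these libraries only, and the 95% intervals allow for counting error alone. Each fold change is knockdown over control.

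In each compartment a synthetase activates its amino acid with ATP and passes it to the end of the matching tRNA. Several cytosolic enzymes are held together with the scaffold proteins AIMP1, AIMP2 and EEF1E1 in the multisynthetase complex. When charged tRNA runs short, uncharged tRNA activates the kinase GCN2 (EIF2AK4), phosphorylated eIF2 favours translation of the transcription factor ATF4, and ATF4 raises genes of amino acid synthesis, amino acid transport and, from work largely in mouse cells, many cytosolic synthetases. Mitochondrial synthetases are encoded in the nucleus and imported, and they serve translation of the mitochondrial genome.

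The knockdown library held 26084594 counts and the control library 24740581. PHF12, the targeted gene, had 756 counts in the knockdown library, against 947 in the control library, and stood at 0.753 of the control level (95% counting interval 0.683 to 0.829). The mesenchymal marker VIM was abundant at 4876 TPM in the knockdown library and 5349 TPM in the control library, as were the keratins KRT18, at 1772 and 2189 TPM in the same order, and KRT8, at 888 and 1147 TPM. The 3 other epithelial markers were low, with CDH1 at 0 in both libraries and EPCAM and KRT19 below 2 TPM in both. The 4 leukocyte markers summed to 1.03 TPM in the knockdown library and 1.05 in the control library, and the 5 alveolar and airway markers to 0.934 and 1.31 TPM, with PTPRC, CD3E, SFTPC and SCGB1A1 at 0 in both. The 4 fibroblast and 2 endothelial markers were likewise at the floor, with sums of 1.24 and 0.786 TPM in the knockdown library and 0.995 and 0.740 TPM in the control library. The erythroid markers HBA1 and HBB had 0 counts in the knockdown library and 4 in the control library.

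The binding site through which ATF4 acts, the C/EBP-ATF response element, has the core TGATGNAA, and it was searched on both strands of the RefSeq promoter windows (GRCh38.p14, 250 bases before to 50 after each annotated start). Windows were found for 30 of the 38 synthetase genes; those without one included AARS2, LARS1, TARS3, VARS1, VARS2 and YARS1. The core was present in 7 of the 16 cytosolic genes with a window and in 1 of the 14 mitochondrial genes. It was present in 2.71% of the measured protein-coding genes with a window and in 4.46% of all genes with a window. The 7 cytosolic genes all belong to the 13 cytosolic synthetases known as ATF4-dependent (AARS1, CARS1, EPRS1, GARS1, IARS1, LARS1, MARS1, NARS1, SARS1, TARS1, VARS1, WARS1 and YARS1). The 8 sites are shown because the results below turn on whether these genes followed the other ATF4 targets; capitals mark the core, and each line is in the direction of its gene.
AARS1, chr16:70289676-70289703, minus strand: tttctcgcagTTGCATCAgccaagttag
CARS1, chr11:3057408-3057435, minus strand: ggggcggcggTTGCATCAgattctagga
GARS1, chr7:30594835-30594862, plus strand: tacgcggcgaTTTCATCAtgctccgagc
IARS1, chr9:92293693-92293720, minus strand: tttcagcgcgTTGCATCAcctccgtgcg
MARS1, chr12:57488054-57488081, plus strand: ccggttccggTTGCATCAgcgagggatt
NARS1, chr18:57621805-57621832, minus strand: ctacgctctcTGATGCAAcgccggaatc
TARS1, chr5:33440957-33440984, plus strand: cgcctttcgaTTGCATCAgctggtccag
YARS2, chr12:32756077-32756104, minus strand: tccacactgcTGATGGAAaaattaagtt

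In the cytosolic genes the core read in the reverse direction in 6 of 7, and in 6 of 7 it was TTGCATCA or its reverse complement, with GARS1 holding TTTCATCA. In YARS2, whose mitochondrial enzyme charges tyrosine tRNA, the core began at position -197 from the RefSeq start, which lies inside the longer span that the authors' table lists for the gene. In CARS1, MARS1 and TARS1 it began within 4 bases of a RefSeq start. A match is a description of the letters and not evidence of binding.

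Synthetase transcript levels were compared first per length, as the authors' TPM (transcripts per 1000000). Cytosolic genes had a median of 224 TPM in the knockdown library, against 240 TPM in the control library. Mitochondrial genes had a median of 31.2 TPM in the knockdown library, against 25.8 TPM in the control library. Both mitochondrial medians are the values of AARS2, which had a log2 ratio of 0.25. The cytosolic medians are the values of WARS1 in the knockdown library and of AARS1 in the control library. These medians therefore do not give the change of either set. The median log2 fold change was -0.00013 for the cytosolic and -0.010 for the mitochondrial genes. The cytosolic range was wide, reaching up to GARS1, which encodes the glycine enzyme of both compartments, at 344 TPM in the knockdown library and 404 TPM in the control library. It reached down to TARS3, a second cytosolic threonine enzyme, at 5.79 and 5.66 TPM in the same order. The mitochondrial enzyme with the highest level was IARS2, for isoleucine, at 126 TPM in the knockdown library and 116 TPM in the control library, and the lowest was FARS2, for phenylalanine, at 5.30 and 5.62 TPM.

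**Figure D1:**
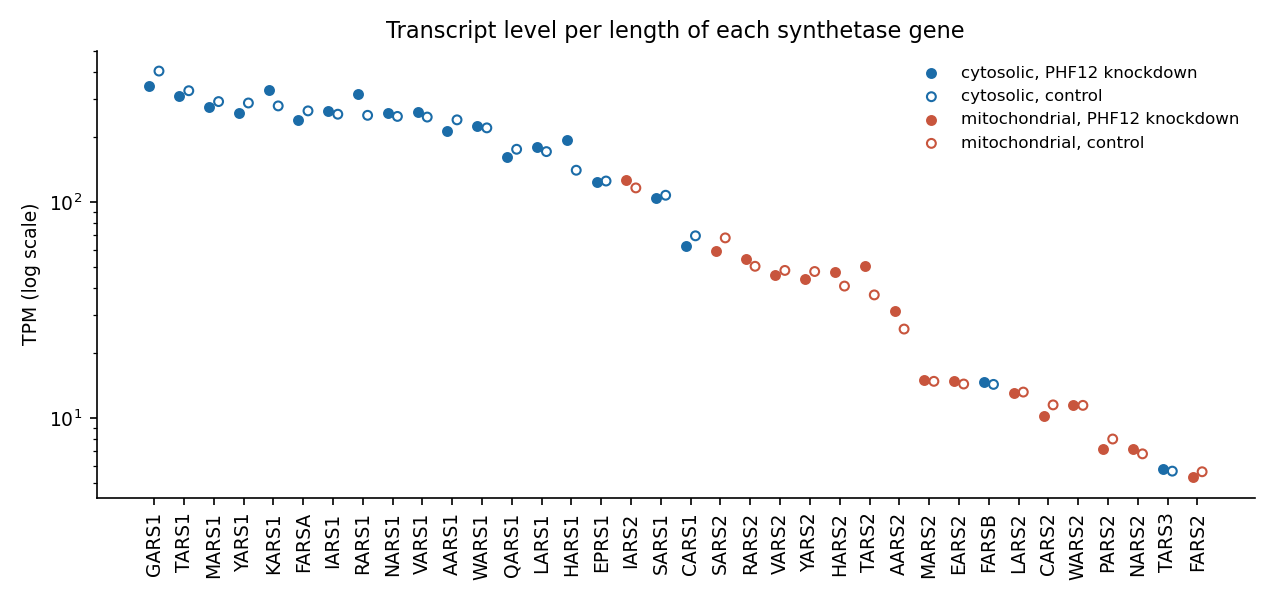
Transcript level of each synthetase gene reported by name, in TPM on a log axis, ordered by the control level; filled points are the PHF12 knockdown library, open points the control library, blue cytosolic and red mitochondrial. Most cytosolic genes lie above the mitochondrial ones; mitochondrial IARS2 lies above SARS1 and CARS1, and FARSB and TARS3 lie at the lower levels, and the 2 libraries lie close together for every gene.

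The cytosolic enzyme exceeded its mitochondrial counterpart in TPM in 18 of the 19 pairs charging the same amino acid, in both libraries. The exception was TARS3 against TARS2. The median TPM ratio of the pairs was 6.12 in the knockdown library and 6.07 in the control library. FARSA and FARSB encode the subunits that form the cytosolic phenylalanine enzyme together, yet their levels lay far apart. FARSA had 240 TPM in the knockdown library and 264 TPM in the control library, and FARSB had 14.6 and 14.3 TPM. The lengths the authors list for them are 1811 and 9202 bases, so these levels depend on the listed lengths; the counts of FARSB were 1243 in the knockdown library and 1168 in the control library.

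Between the libraries, the synthetase genes as a whole stayed close to the control level. All 38 genes averaged 1 CPM (counts per 1000000) or more and so passed the filter, and their log2 fold changes ran from -0.26 for GARS1 to 0.44 for HARS1. The median was -0.00013 for the 21 cytosolic genes and -0.010 for the 17 mitochondrial genes, against -0.0071 for all 14559 genes measured, a difference between compartments of 0.0099. Synthetase genes together took 144997 counts in the knockdown library and 138032 in the control library.

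Genes were counted where the log2 fold change reached 0.32 in size, which is at least 20% lower or at least 25% higher. No cytosolic and no mitochondrial synthetase was at least 20% lower in the knockdown library, a size passed by 8.02% of the genes measured. At least 25% higher were 1 of 21 cytosolic genes (HARS1) and 1 of 17 mitochondrial genes (TARS2), where 6.99% of the genes measured passed. Of the 10986 genes within the synthetases' range of mean CPM, 614 were at least 20% lower and 574 at least 25% higher. The shares over all genes measured also include genes counted less than any synthetase. At 1.5-fold no synthetase passed in either direction, against 1.41% of genes measured lower and 1.33% higher. Of the cytosolic genes 11 of 21 and of the mitochondrial genes 9 of 17 lay below 0, near the 51.6% of all genes measured, and the others lay above 0, as did 48.4% of all. The counting interval lay below 0 for 9 cytosolic and 3 mitochondrial genes, where 20.9% of genes measured had such an interval. It lay above 0 for 4 cytosolic and 5 mitochondrial genes, where the share was 20.3%. Synthetase genes have higher levels than most genes, with a median of 88.3 TPM in the knockdown library against 17.4 TPM for all genes measured, so their intervals are narrower and exclude 0 at smaller differences.

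**Figure D2:**
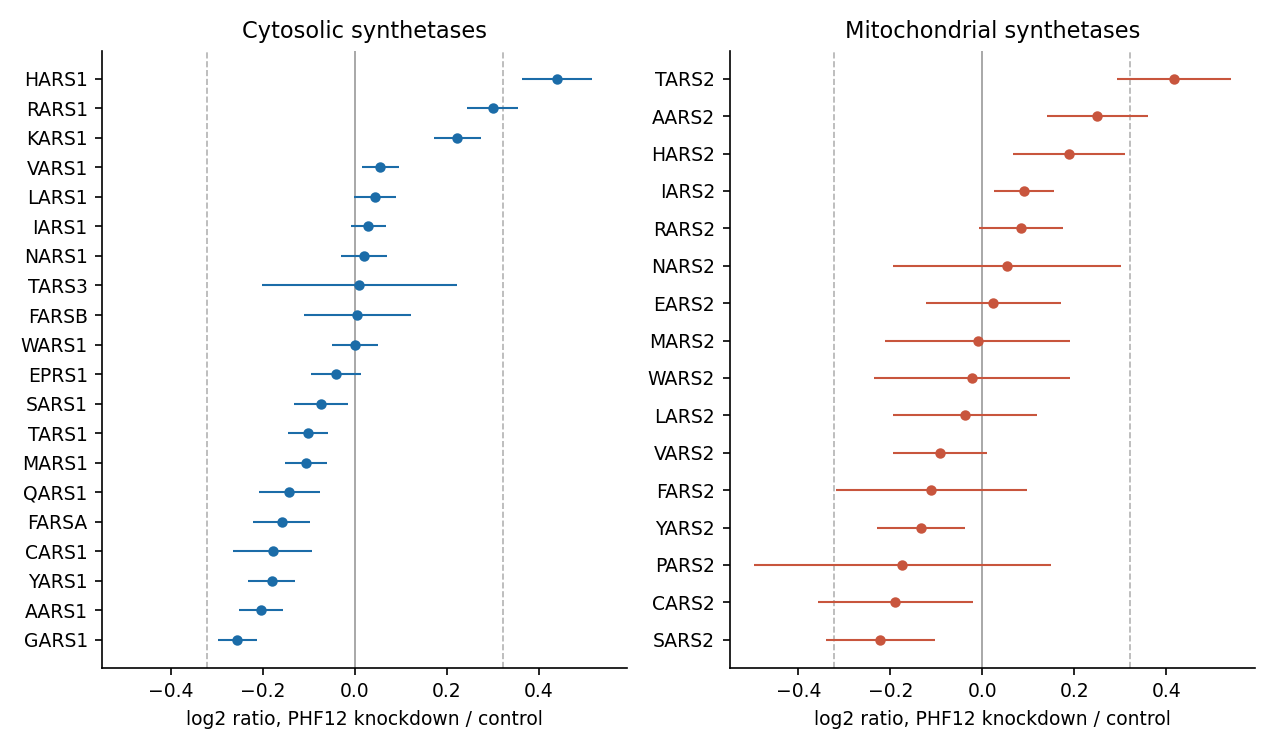
log2 ratio of the PHF12 knockdown library over the control library for each cytosolic (left) and mitochondrial (right) synthetase gene reported by name, without pseudocount; bars are exact 95% counting intervals and dashed lines mark 0.32 to either side of 0. HARS1 at 0.44 and TARS2 at 0.42 lie beyond the upper dashed line and no gene lies beyond the lower one.

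The lowest cytosolic genes were those for glycine, alanine, tyrosine and cysteine. GARS1, at chr7:30594735-30634033 in hg38, had 8578 counts in the knockdown library, against 9656 in the control library, a log2 ratio of -0.26 (-0.30 to -0.21). AARS1, whose enzyme charges alanine tRNA and has an editing site against serine, had 6764 and 7345 counts in the same order, a log2 ratio of -0.20 (-0.25 to -0.16). YARS1, for tyrosine, had 6015 counts in the knockdown library and 6430 in the control library, at -0.18 (-0.23 to -0.13). None of these was 20% lower, and a larger absolute change than that of GARS1 was found in 23.1% of the genes measured. CARS1, for cysteine, had 2107 counts in the knockdown library and 2249 in the control library, at -0.18 (-0.27 to -0.09). GARS1, AARS1 and CARS1 hold the core printed above, whereas YARS1 had no window.

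Further cytosolic genes with an interval below 0 were FARSA at -0.16, QARS1 (glutamine) at -0.14, MARS1 (methionine) at -0.11, TARS1 (threonine) at -0.10 and SARS1 (serine) at -0.07. MARS1 overlaps DDIT3, which encodes the stress factor CHOP, by 68 bases on the other strand. DDIT3 stood at -0.48, and with no strand setting given, reads in the overlap could not be assigned with certainty. Intervals that included 0 were found for EPRS1, the joined glutamate and proline enzyme, at -0.04 (-0.10 to 0.01), and for WARS1, FARSB, TARS3, NARS1, IARS1 and LARS1, with log2 ratios from -0.00013 to 0.04. WARS1, the tryptophan enzyme and a known interferon-inducible gene, had 6483 counts in the knockdown library and 6114 in the control library, a log2 ratio of -0.00013 (-0.05 to 0.05). VARS1 (valine) had an interval just above 0, with a log2 ratio of 0.06 (0.01 to 0.10).

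The highest log2 ratios among cytosolic genes were those of the histidine, arginine and lysine enzymes. HARS1, for histidine, at chr5:140673905-140691370, had 3491 counts in the knockdown library, against 2428 in the control library. Its level was 193 TPM in the knockdown library and 140 TPM in the control library, and its log2 ratio was 0.44 (0.36 to 0.51). A larger absolute change was found in 7.25% of the genes measured. RARS1, for arginine, had 6199 counts in the knockdown library and 4751 in the control library, a log2 ratio of 0.30 (0.24 to 0.35). KARS1, for lysine in both compartments, had 7000 and 5656 counts in the same order, a log2 ratio of 0.22 (0.17 to 0.27). RARS1 stood at 1.23 times the control level from scaled counts, just short of 25% higher, and passed that size with the authors' TPM, which put 2 cytosolic genes past it. Of these, HARS1 overlaps WDR55 by 215 bases on the other strand, and WDR55 stood at -0.06 (-0.15 to 0.04).

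Among the mitochondrial genes TARS2, for threonine, at chr1:150487411-150507609, had the highest log2 ratio. It had 1279 counts in the knockdown library and 904 in the control library. The ratio was 0.42 (0.29 to 0.54). AARS2, for alanine, had 1530 counts in the knockdown library and 1213 in the control library, at 0.25 (0.14 to 0.36). The whole listed span of AARS2 lies within that of POLR1C on the other strand, and POLR1C stood at -0.02 (-0.13 to 0.10). HARS2 stood at 0.19 (0.07 to 0.31) and IARS2 at 0.09 (0.03 to 0.16).

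The lower end of the mitochondrial set was held by SARS2 for serine, which had 1102 counts in the knockdown library and 1212 in the control library and stood at -0.22 (-0.34 to -0.10). CARS2 stood at -0.19 (-0.36 to -0.02) and YARS2, whose listed span overlaps DNM1L on the other strand, at -0.13 (-0.23 to -0.04). The intervals of PARS2, FARS2, VARS2, LARS2, WARS2, MARS2, EARS2, NARS2 and RARS2 included 0, with log2 ratios from -0.17 for PARS2 to 0.08 for RARS2. PARS2 (proline) was the least counted member, with 157 counts in the knockdown library and 167 in the control library, and its interval spanned -0.50 to 0.15. At these counts a difference of the size seen for SARS2 was not detectable for PARS2.

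Cytosolic and mitochondrial enzymes of the same amino acid were then set against each other, a comparison in which the scaling of the libraries cancels. The cytosolic gene had the lower log2 fold change in 10 of 19 pairs and the mitochondrial gene in 9. Some genes enter more than 1 pair, since EPRS1 was set against EARS2 and PARS2, TARS1 and TARS3 against TARS2, and FARSA and FARSB against FARS2. The counting interval of the difference lay below 0 in 4 pairs, above 0 in 4 and included 0 in 11. The median difference, cytosolic minus mitochondrial, was -0.03 on the log2 scale.

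Threonine and alanine were the amino acids whose pairs moved furthest apart in the direction of a higher mitochondrial enzyme. TARS1 stood at 6.17 times the TPM of TARS2 in the knockdown library, against 8.83 times in the control library, a log2 difference of -0.52 (-0.65 to -0.39). AARS1 stood at 6.80 times AARS2 in the knockdown library, against 9.31 times in the control library, a log2 difference of -0.45 (-0.57 to -0.33). TARS3 with TARS2 also lay below 0, at -0.41 (-0.65 to -0.16). In the other direction, HARS1 over HARS2 differed by 0.25 (0.11 to 0.39) and RARS1 over RARS2 by 0.22 (0.11 to 0.32). The valine and serine pairs differed by 0.15 each, with intervals from 0.04 to 0.26 for valine and from 0.02 to 0.28 for serine.

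**Figure D3:**
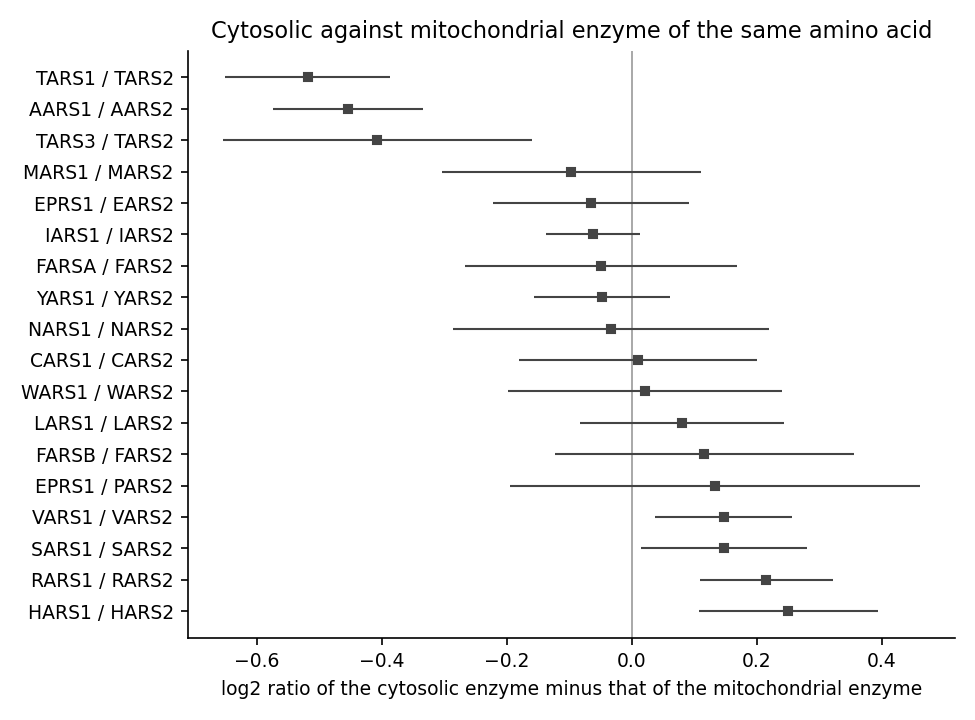
Difference of log2 ratios, cytosolic minus mitochondrial enzyme, for the pairs reported by name that charge the same amino acid; bars are exact conditional 95% counting intervals. The threonine and alanine pairs lie furthest to the left, at -0.52 and -0.45, and the histidine pair furthest to the right, at 0.25.

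Summed over genes, mitochondrial enzymes took 14.3% of synthetase counts in the knockdown library (Wilson 95% interval 14.1 to 14.4) and 13.6% in the control library (13.4 to 13.8). By TPM the mitochondrial share was 12.5% in the knockdown library and 12.0% in the control library. The summed cytosolic counts had a log2 ratio of -0.02 (-0.04 to -0.01) and the summed mitochondrial counts one of 0.05 (0.02 to 0.08), so the mitochondrial sum differed in sign from the mitochondrial median of -0.010.

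HARS1 and HARS2 are transcribed away from each other on chromosome 5, with annotated starts 85 bases apart, and both were higher in the knockdown library. The stretch is shown because it lies between the annotated starts of both genes, and whether either gene uses it was not tested. Capitals mark the ETS core CCGGAAGT on either strand. That core stands at each end of the stretch and occurs in 1047 of the 10465 measured protein-coding genes with a window. It was also found in 5 of 16 cytosolic and 3 of 14 mitochondrial synthetase genes with a window, HARS1 and HARS2 included. HARS1 and HARS2 hold the same sites, so this stretch counts in both of these shares. The other synthetase genes with the ETS core that lay above 0 were NARS1 and EARS2, each at a log2 ratio of 0.02. Those below 0 were CARS1 at -0.18, PARS2 at -0.17, TARS1 at -0.10 and WARS1 at -0.00013.
HARS1 to HARS2, chr5:140691371-140691454, plus strand: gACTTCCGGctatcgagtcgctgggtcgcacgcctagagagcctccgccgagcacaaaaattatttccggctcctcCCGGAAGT

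The HARS2 log2 ratio of 0.19 was smaller than that of HARS1, by the pair difference given above. Among the 38 genes, 15 had a measured gene starting within 1000 bases on the other strand, and neighbours lay both on the same and on opposite sides of 0. SARS2 and its neighbour MRPS12, a mitochondrial ribosomal protein gene, stood at -0.22 and -0.16. AARS1 and its neighbour DDX19B, an RNA helicase gene, stood at -0.20 each, and the interval of DDX19B ran from -0.42 to 0.01. TARS1 stood at -0.10 while its neighbour TARS1-DT, a long non-coding RNA gene with 44 counts in the knockdown library and 37 in the control library, stood at 0.17 (-0.50 to 0.84). The number of measured synthetase genes that overlap a measured gene on the other strand was 10.

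The division by known ATF4 dependence gave small differences in level. The 13 cytosolic synthetases known as ATF4-dependent had a median log2 fold change of -0.07. Of these, 9 lay below 0, as did 51.6% of all genes measured. None was at least 20% lower, against 8.02% of genes measured. Counting intervals lay below 0 for 7 of the 13 and above 0 for 1, against 20.9% and 20.3% of genes measured. The 8 other cytosolic genes, among them FARSA, FARSB, HARS1, KARS1, QARS1, RARS1 and TARS3, had a median of 0.02, with 2 below 0. Among these 8, counting intervals lay below 0 for 2 and above 0 for 3. The 7 cytosolic genes holding the core had a median log2 ratio of -0.11 and ran from -0.26 for GARS1 to 0.03 for IARS1. The 9 cytosolic genes with a window but no core had a median of -0.00013 and ran from -0.16 for FARSA to 0.44 for HARS1. The groups overlap, and IARS1 and NARS1 hold the core and lay slightly above 0.

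Other ATF4-controlled genes of the amino acid response lay much further down. All 16 of the genes listed here were below 0, with a median log2 fold change of -0.51, and 15 of 16 were at least 20% lower, against 8.02% of the genes measured. ASNS, the asparagine synthetase, had 3735 counts in the knockdown library and 5034 in the control library, a log2 ratio of -0.52 (-0.58 to -0.45). CTH, an enzyme of cysteine synthesis, stood at -0.86 (-1.12 to -0.60), STC2, a secreted glycoprotein, at -0.86 (-0.96 to -0.75), and CHAC1, which degrades glutathione, at -0.84 (-0.96 to -0.73). The highest of the 16 was SHMT2, the mitochondrial serine hydroxymethyltransferase, at -0.30 (-0.36 to -0.24), and the lowest synthetase, GARS1, stood above it at -0.26. ATF4 transcript itself stood at -0.20 (-0.25 to -0.16), with 7983 counts in the knockdown library and 8673 in the control library; its activity is largely set by translation. The amino acid response list was already known to lie low in these libraries when it was chosen and is no independent evidence. The core occurred in the window of 3 of its 14 matched genes.

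**Figure D4:**
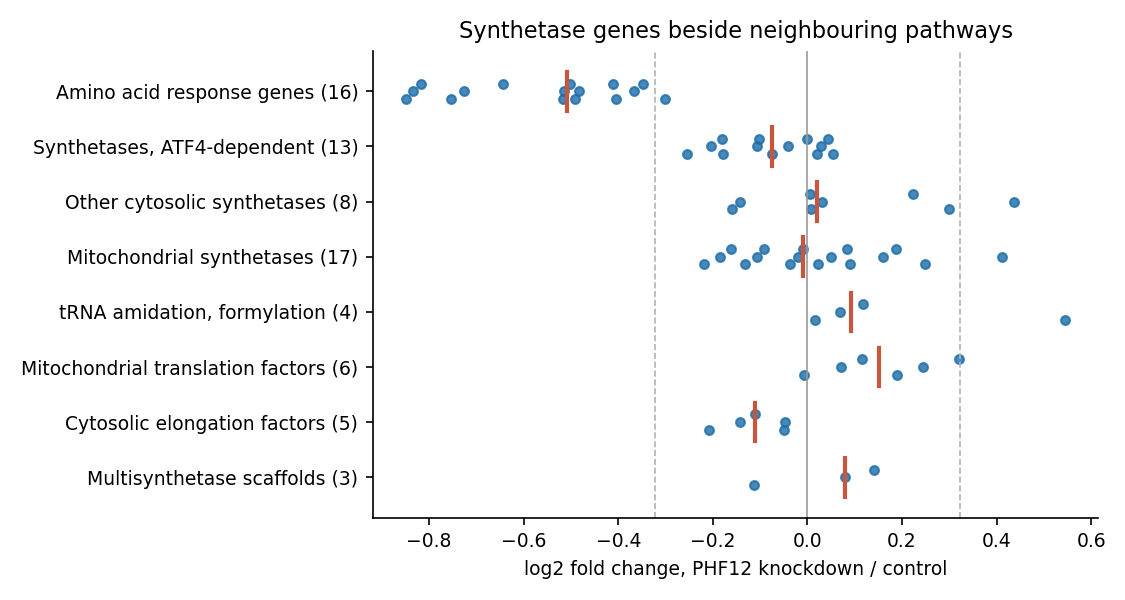
log2 fold change (pseudocount of 0.5 CPM) of each gene, knockdown over control, by group; each point is a gene, red bars are medians, dashed lines mark 0.32 to either side of 0, and the number of genes is in parentheses. Amino acid response genes lie at a median of -0.51 and all synthetase groups lie around 0.

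By median, the multisynthetase complex and the other cytosolic synthetases differed by about as much as the division by ATF4 dependence. Its 8 synthetases, among them EPRS1, IARS1, KARS1, LARS1, MARS1, QARS1 and RARS1, had a median of 0.03, and the 13 cytosolic genes outside it a median of -0.07. The summed counts had log2 ratios of 0.04 (0.02 to 0.06) for the 8 and -0.08 (-0.09 to -0.06) for the 13. The division by ATF4 dependence lay further apart by this measure. Its sums stood at -0.07 (-0.08 to -0.05) for the genes known as dependent and 0.11 (0.09 to 0.14) for the others. Whether any of these sets differ beyond replicate spread was not tested. Of the 8 synthetases in the complex, none was at least 25% higher or 20% lower. The scaffolds stood at 0.14 (0.02 to 0.26) for AIMP1, -0.11 (-0.23 to -0.003) for AIMP2 and 0.08 (-0.06 to 0.22) for EEF1E1. By structural class, the 9 class I cytosolic genes had a median of -0.00013 and the 11 class II genes one of 0.0051, with EPRS1, which joins both classes, in neither.

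Human mitochondria have no tRNA synthetase of their own for glutamine and make the charged glutamine tRNA by amidation. QRSL1, GATB and GATC carry out this amidation, and MTFMT formylates the initiator methionine tRNA. All 4 genes lay above 0, as did 48.4% of genes measured, with a median log2 fold change of 0.09. The intervals of QRSL1, at 0.02 (-0.10 to 0.13), and MTFMT, at 0.07 (-0.13 to 0.27), included 0. GATB was the only one of them at least 25% higher, with 591 counts in the knockdown library, against 378 in the control library, a log2 ratio of 0.56 (0.37 to 0.75). EARS2, the glutamate enzyme whose product they amidate, stood at 0.02 (-0.12 to 0.17).

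The medians of the translation factors that work with the charged tRNAs lay on opposite sides of 0 in the 2 compartments. All 5 cytosolic elongation factor genes had intervals below 0, against 20.9% of genes measured, with a median of -0.11, and 0 of 5 were at least 20% lower. They are among the most counted genes, with up to 416050 counts, so their intervals exclude 0 at small differences. The lowest was EEF1B2, the exchange factor subunit, at -0.21 (-0.26 to -0.16). Of the 6 mitochondrial translation factor genes 5 had intervals above 0, against 20.3% of genes measured, the median was 0.15, and 0 of 6 were at least 25% higher. TSFM, the exchange factor for mitochondrial EF-Tu, had 1446 counts in the knockdown library and 1089 in the control library and stood at 0.32 (0.21 to 0.44), just short of 25% higher by the log2 fold change with pseudocount. The 5 genes listed for sensing uncharged tRNA went both ways, with ATF4 at the -0.20 given above and IMPACT, an inhibitor of GCN1, at -0.07 (-0.19 to 0.05). EIF2AK4 stood at 0.10 (0.05 to 0.15) and its activator GCN1 at 0.10 (0.07 to 0.14), and EIF2S1, which encodes the eIF2 subunit that EIF2AK4 phosphorylates, at 0.12 (0.07 to 0.18).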

How the data were processed

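RNA-seq was measured in 1 PHF12 knockdown and 1 control library of H1299 cells, grouped by the treatment label. The submitters' processing notes name HISAT2, HTSeq and the build hg38; the sources used here give neither versions nor a strand setting. The authors deposited raw counts per gene and TPM values, per the file headers, and dividing the counts by the listed gene length returned the TPM within 1e-06. The 2 count columns and 2 TPM columns were matched to samples by title.

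Counts were scaled with TMM factors (edgeR 4.0.16, R 4.3.3) of 1.00 for the knockdown and 0.997 for the control library. Genes averaging 1 CPM or more were kept. The log2 fold change carries a pseudocount of 0.5 CPM; log2 ratios and folds beside an interval carry none. Intervals are exact conditional Clopper-Pearson 95% intervals of 2 Poisson counts, and conditional odds ratio intervals for pairs. There is no p-value, since each group has 1 library; genes were counted where the log2 fold change reached 0.32 in size. Cytosolic interval half-widths ran from 0.04 to 0.21 on the log2 scale and mitochondrial ones from 0.06 to 0.32.

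The synthetase genes, the gene lists and the rule of size were chosen with earlier results of these data known. All synthetase genes enter the counts and medians, and some are not reported by name here; from other lists come the members with the largest change, with some chosen for their role (ASNS, SHMT2, ATF4, EARS2 and EIF2AK4). Alternatives were DESeq2 1.42.0 size factors, total-count scaling, a pseudocount of 0.1 or 1 CPM, the deposited TPM, no filter, a minimum of 5 CPM, a rule of 1.5-fold, and leaving GARS1 and KARS1 out of the cytosolic set. Promoter words were searched after the counts were seen, in RefSeq windows matched by gene ID. Software was scipy 1.17.1, numpy 2.4.6, pandas 2.3.3 and matplotlib 3.10.9 under Python 3.11.15.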

Additional observations from a re-analysis of the deposited data

How the results depend on the processing

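The cytosolic median log2 fold change ran from -0.00013 to 0.02 and the mitochondrial median from -0.010 to 0.01 over the alternatives tried. Both medians were above 0 with DESeq2 size factors and with the deposited TPM, and the cytosolic one also with scaling by total counts. No synthetase was at least 20% lower under any alternative. At least 25% higher were 2 cytosolic genes with the deposited TPM values, and 0 cytosolic and 0 mitochondrial genes at 1.5-fold, against 1 and 1 by the rule used above. The cytosolic gene was the lower one in 10 of 19 pairs with each pseudocount and with TPM. Scaling by total counts and DESeq2 size factors moved every log2 ratio by 0.0084 and 0.02, and no synthetase log2 ratio left its counting interval. No paired analysis was possible because each group has 1 library and the labels give no replicate numbers. Depth limited the least counted mitochondrial genes most, with intervals of up to 0.32 to either side.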

Other observations

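Of the 5 listed genes that finish and export tRNAs, all had a log2 fold change below 0, as did 51.6% of all genes measured, with a median of -0.17. None was 20% lower, and the intervals of ELAC1, LCMT2 and TRNT1 included 0. XPOT, the tRNA exporter, had 8886 counts in the knockdown library, against 9846 in the control library, a log2 ratio of -0.23 (-0.27 to -0.19). TRNT1, which adds the CCA end that receives the amino acid, stood at -0.17 (-0.37 to 0.02), and ELAC2, which trims the tRNA end, at -0.16 (-0.23 to -0.09). Among 6 genes of selenocysteine tRNA synthesis, editing and proofreading, SEPSECS, the enzyme that makes selenocysteine on its tRNA, stood at -0.25 (-0.41 to -0.08). The intervals of the other 5 included 0.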
